A study of Mus musculus with 8 samples.

Results

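The genes of the mitochondrial respiratory chain and of ATP synthase were examined in club cells of Atgl KO/cTg mice and of wt/cTg mice. Members were the genes whose symbol has the form used for nuclear-encoded subunits (Nduf, Sdh, Uqcr, Cyc1, Cycs, Cox and Atp5 followed by a subunit code), read from array probe sets annotated with 1 symbol only. Where a gene had several such probe sets, the brightest of them, by its mean over all 8 arrays, stood for it. This gave 76 of the 22180 genes on the array: 32 of complex I, 4 of complex II, 8 of complex III, cytochrome c (Cycs), 14 of complex IV and 17 of complex V, which is ATP synthase. Genes were placed in complexes by symbol alone, so every Nduf gene, Ndufa4 among them, counted as complex I. The placing was not checked against where each protein sits. The rule for members reads symbols and mean levels, not differences, but the set was chosen for study with earlier results of these data known. The symbol pattern leaves out a few true subunits, such as Cox4i1 and Ndufab1, which are given further on, and 5 others (Cox6c, Ndufb2, Ndufb4, Ndufs6 and Uqcr10) were found only on probe sets with several symbols and were not analysed here.

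The respiratory chain sits in the inner mitochondrial membrane. Complex I takes electrons from NADH and complex II takes them from succinate, ubiquinone carries them to complex III, and cytochrome c carries them on to complex IV, which passes them to oxygen. Complexes I, III and IV pump protons as they do so, and ATP synthase uses the returning protons to make ATP. Fatty acids set free by adipose triglyceride lipase, the product of Atgl (now named Pnpla2), are one fuel whose oxidation feeds electrons into the chain. Club cells are secretory cells of the airway lining, known for abundant xenobiotic metabolism and for many mitochondria.

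Knockout pools (Atgl KO/cTg) and control pools (wt/cTg) numbered 4 each. Each array carried RNA of club cells combined from 3 or 4 mice, 16 knockout mice and 14 controls in all, and 2 of the control pools came from 3 mice. Ages lay between 38 and 48 weeks, all animals were untreated on standard chow, and both genotypes carry cTg, which the labels do not spell out. The labels also do not say which promoter or Cre line was used for the deletion. Replicates are pools, so p-values measure the spread between pools, and the replicate numbers used here only name the arrays.

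The signal of Pnpla2 was 6.99, 7.16, 7.09 and 6.70 in the Atgl KO/cTg pools and 8.70, 8.63, 8.62 and 8.86 in the wt/cTg pools on the log2 scale of the deposited values, so every knockout pool was below every control pool. Its difference of -1.72 (SE 0.11) passed limma's test (adjusted p = 0.000116). The club cell secretoglobin Scgb1a1 averaged 12.9 ± 0.10 in Atgl KO/cTg, against 13.0 ± 0.07 in wt/cTg (SD, n = 4), and the club cell cytochrome P450 Cyp2f2 12.6 ± 0.06 in Atgl KO/cTg, against 12.6 ± 0.04 in wt/cTg, so the labelled cell type had its defining transcripts. Of the 9 club cell markers 7 lay above 0, with a median of 0.14. An unadjusted limma p under 0.05 was found for 4 of the 9, all higher in Atgl KO/cTg (none called), beside 7.95% of all tested genes. Transcripts of other lung cells were present too. All 12 markers of alveolar type 2 cells lay below 0, where 52.2% of all tested genes did. Of the 12, 4 were called lower, beside 0.0991% of all tested genes called in either direction. None of the 12 was called in 9 of 17 alternatives, among them quantile normalization and a block on runs of mouse numbers. All 13 markers of fibroblasts and smooth muscle also lay below 0 (none called), while all tested goblet, neutrophil and ciliated cell markers lay above 0 (none called). Below 0 lay 7 of 8 alveolar type 1 markers and 7 of 10 endothelial markers (none called). Macrophage, T and NK, and B cell markers lay on both sides of 0. In RNA from a mixed cell preparation, fewer cells of a type and less RNA per cell cannot be told apart.

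No transcript of the respiratory chain passed the test between Atgl KO/cTg and wt/cTg club cells, and most of the differences were small. Of the 76 members, 71 had a mean above the median of all probe sets (5.18) and were tested. None rose and none fell in limma's test at an adjusted p under 0.05, where 13 of 13112 genes, 0.0991%, were called. At an unadjusted limma p under 0.05 there were 2 members, Cox6a2 and Cox8b, both lower in Atgl KO/cTg, which is 2 of 71 where 7.95% of all tested genes had such a p. The groups did not overlap for 3 members on the lower side (Cox8b, Uqcrb and Atp5pb), where this held for 2.62% of all tested genes. On the higher side 1 member had groups apart (Ndufa8), where 1.74% of all tested genes did. With so few members counted, 3 and 1 of 71 lie near those shares.

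The median difference of the 71 members was -0.013 on the log2 scale (Atgl KO/cTg minus wt/cTg), beside -0.0073 over all 13112 tested genes. It lay above 0 in 2 of 17 alternative settings, at 0.0086 after quantile normalization and at 0.013 without Atgl KO/cTg replicate 3, so it has no settled sign. Below 0 lay 44 members (62.0%, beside 52.2% of all tested genes) and above 0 lay 27. The interquartile range of the members ran from -0.06 to 0.03, a narrower range than the -0.10 to 0.09 of all tested genes. Within 0.1 of 0 on either side were 53 members, 74.6% of those tested, beside 52.2% of all tested genes.

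The data also bound how large a difference these genes could have had. The 95% limma interval of the difference stayed within 0.25 of 0 for 43 members (60.6%) and within 0.5 for 68 members (95.8%), beside 13.4% and 77.9% of all tested genes. The exceptions at 0.5 were Cox6a2, Cox8b and Cox7b, all of complex IV. These short intervals went with a small spread between pools of one genotype, a median within-group SD of 0.09 beside 0.17 over all tested genes. The members were also brighter, with a median level of 9.90 beside 7.09, and the shares within 0.1, 0.25 and 0.5 were not matched for level. Among genes with a mean level above 9 the median SD was 0.09 for 46 members and 0.12 for 1554 genes. The steadiest member was Atp5pb, a stalk subunit of ATP synthase (SD 0.03), and the most variable were Cox8b (0.43) and Cox6a2 (0.34).

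**Figure D1:**
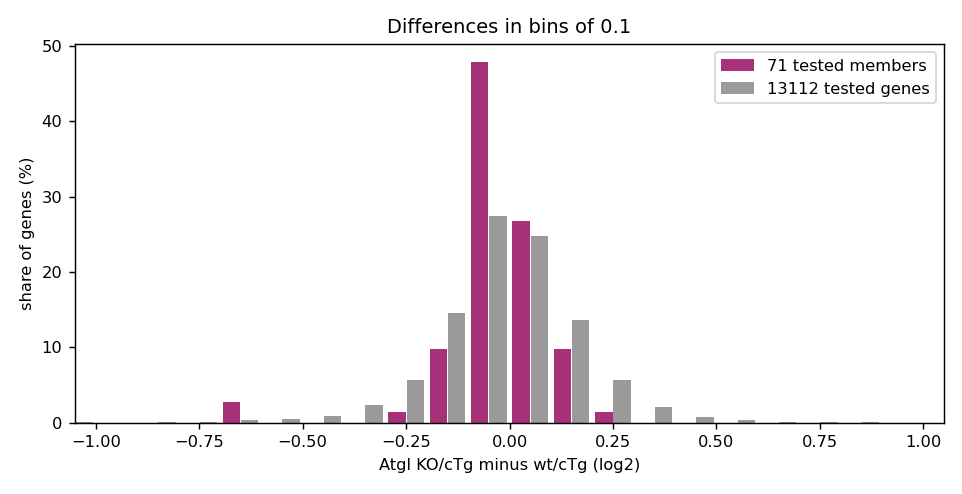
Share of genes (%) by log2 difference, Atgl KO/cTg minus wt/cTg, in bins of 0.1, for the 71 tested members and all 13112 tested genes. The members crowd around 0, with 53 of 71 within 0.1 of it, and the 2 members far to the left are Cox6a2 and Cox8b.

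Complex I, NADH dehydrogenase, is the largest of the complexes and had 31 of its 32 members tested. Its median difference was -0.0033, whose sign turned in 5 of 17 alternatives, with 12 members above 0 and 19 below, and every value lay between -0.12 and 0.14. The 6 tested subunits of the catalytic core, which carry the flavin and the iron-sulphur clusters, had a median of -0.011, and the 25 accessory subunits -0.0033. The smallest limma adjusted p in the complex was 0.66. Ndufs5, an accessory subunit of the intermembrane side, lay below the level filter, at 4.67 ± 0.11 in Atgl KO/cTg, against 4.62 ± 0.18 in wt/cTg (SD, n = 4).

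Ndufs1, the core subunit with the most iron-sulphur clusters, read 7.49, 7.53, 7.49 and 7.73 in the Atgl KO/cTg pools and 7.73, 7.44, 7.58 and 7.44 in the wt/cTg pools. Ndufv1, which binds NADH and flavin, read 8.74, 9.24, 8.87 and 8.88 in Atgl KO/cTg, against 8.92, 8.88, 8.90 and 8.95 in wt/cTg. Both genes overlapped fully between genotypes, and for Ndufv1 both ends of the range were Atgl KO/cTg pools. Their differences were 0.01 (SE 0.10) and 0.02 (SE 0.10), with limma adjusted p of 0.988 and 0.983.

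The ends of complex I were Ndufv2 and Ndufa8. Ndufv2, an iron-sulphur subunit beside Ndufv1, read 9.42, 9.03, 9.11 and 9.23 in Atgl KO/cTg, against 9.40, 9.18, 9.36 and 9.32 in wt/cTg, a difference of -0.12 (SE 0.09, limma adjusted p = 0.80). Ndufa8, an accessory subunit on the intermembrane side, read 10.25, 10.48, 10.20 and 10.25 in Atgl KO/cTg, against 10.18, 10.11, 10.13 and 10.18 in wt/cTg. Each Atgl KO/cTg pool of Ndufa8 was above each wt/cTg pool, though by little except in Atgl KO/cTg replicate 2. It had a difference of 0.14 (SE 0.07) with a limma adjusted p of 0.66, and 0.08 without that replicate. The exact permutation p was 0.0286, which is as small as 70 arrangements can give. A second probe set of Ndufa8 gave 0.08.

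Complex II, succinate dehydrogenase, is shared by the respiratory chain and the tricarboxylic acid cycle. All 4 subunits were tested, with a median difference of 0.03 and 2 on each side of 0. Sdha, the flavoprotein that oxidises succinate, averaged 9.74 ± 0.09 in Atgl KO/cTg, against 9.66 ± 0.15 in wt/cTg (SD, n = 4), a difference of 0.08 (SE 0.09). Sdhb, the iron-sulphur subunit, averaged 8.48 ± 0.07 in Atgl KO/cTg, against 8.50 ± 0.10 in wt/cTg (difference -0.02, SE 0.08).

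The membrane anchors of complex II formed its ends. Sdhd read 8.49, 8.83, 8.88 and 8.76 in Atgl KO/cTg, against 8.51, 8.36, 8.81 and 8.77 in wt/cTg, a difference of 0.12 (SE 0.12, limma adjusted p = 0.844). Sdhc read 8.71, 8.61, 8.78 and 8.81 in Atgl KO/cTg, against 8.91, 8.87, 8.84 and 8.74 in wt/cTg, a difference of -0.11 (SE 0.08, limma adjusted p = 0.77). The groups of both anchors overlapped, and the anchors, which sit side by side in the membrane, differed in sign.

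Complex III passes electrons from ubiquinol to cytochrome c. All 8 members were tested, 3 above 0 and 5 below, with a median of -0.018, whose sign also turned in 5 of 17 alternatives. Uqcrfs1, the Rieske iron-sulphur protein, averaged 7.51 ± 0.13 in Atgl KO/cTg, against 7.45 ± 0.08 in wt/cTg, and Cyc1, cytochrome c1, averaged 8.86 ± 0.10 in Atgl KO/cTg, against 8.92 ± 0.05 in wt/cTg (SD, n = 4). Their differences of 0.07 (SE 0.10) and -0.06 (SE 0.08) lay within the spread between pools. The core proteins Uqcrc1 and Uqcrc2, which hold the complex together, were at -0.03 and -0.02.

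Uqcrb and Uqcr11, small subunits of complex III, stood furthest from 0, in opposite directions. Uqcrb, which lies near a ubiquinone site, read 10.23, 10.04, 10.24 and 10.31 in Atgl KO/cTg, against 10.32, 10.37, 10.42 and 10.32 in wt/cTg. No Atgl KO/cTg pool reached the wt/cTg range, but the nearest pools of the 2 genotypes were almost equal. Uqcrb had a difference of -0.15 (SE 0.07) with a limma adjusted p of 0.638 and an exact permutation p of 0.0286. Without Atgl KO/cTg replicate 2 it was -0.10. Uqcr11 read 10.02, 10.26, 9.94 and 10.02 in Atgl KO/cTg, against 9.83, 9.68, 10.03 and 10.01 in wt/cTg, with overlapping groups and a difference of 0.18 (SE 0.10, limma adjusted p = 0.70).

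Cytochrome c, encoded by Cycs, carries electrons from complex III to complex IV and also has a role in apoptosis. It read 10.22, 9.91, 10.10 and 10.17 in the Atgl KO/cTg pools and 10.14, 10.11, 10.40 and 10.17 in the wt/cTg pools. The groups overlapped, with a difference of -0.10 (SE 0.09, limma adjusted p = 0.816). Its 4 other probe sets ran from -0.35 to 0.04, and a pair of them at -0.23 held the same values, so the estimate depends on which probe set stands for the gene.

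Complex IV, cytochrome c oxidase, had the widest spread of differences among the complexes. Its 12 tested members ran from -0.66 to 0.22 with a median of -0.05, and their differences had an SD of 0.27, beside 0.06 in complex I and 0.05 in complex V. Cox5a, a subunit that every tissue uses, was at 0.02 (SE 0.06). Cox7c, a small membrane subunit, had the highest difference of the tested members, 0.22 (SE 0.11, limma adjusted p = 0.674), from 7.21, 7.53, 7.43 and 7.16 in Atgl KO/cTg, against 7.18, 7.04, 7.26 and 6.99 in wt/cTg. Cox7b, another small membrane subunit, read 10.09, 9.57, 9.66 and 10.15 in Atgl KO/cTg, against 9.86, 10.18, 10.36 and 10.25 in wt/cTg. Both overlapped between genotypes. The difference of Cox7b was -0.30 (SE 0.14, limma adjusted p = 0.651), while its second probe set gave 0.07.

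**Figure D2:**
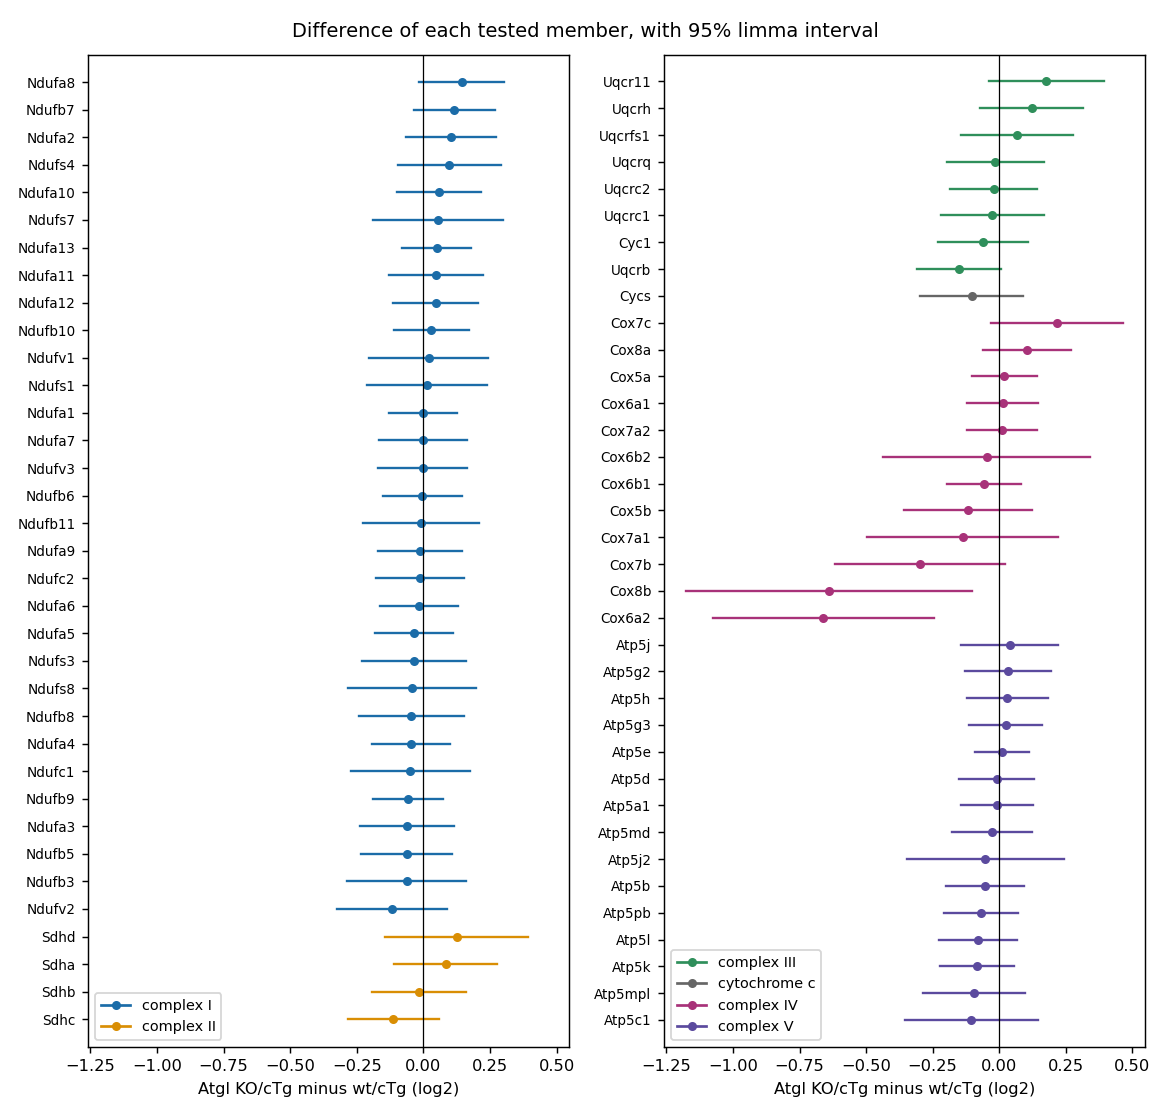
Log2 difference (Atgl KO/cTg minus wt/cTg) of each tested member with its 95% limma interval, complexes I and II on the left and complex III, cytochrome c, IV and V on the right. Of the 71 intervals, those of Cox6a2 and Cox8b do not reach 0, and neither gene passed the adjusted test.

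Complex IV is the part of the chain in which several subunits come as paired genes, one for most tissues and one for muscle or another tissue. The upstream sequences of 3 such genes are shown because the members with the largest differences are of the muscle kind, which the data set beside their counterparts. No upstream sequence was available for Cox6a2, so Cox8b is the only muscle form shown and Cox6a1 stands without its partner. They are the 250 bases before the start of Cox8b (chr7:140900447-140900696, minus strand), of its counterpart Cox8a (chr19:7217617-7217866, minus strand) and of Cox6a1 (chr5:115348959-115349208, minus strand), from RefSeq on build GRCm38.p6, each 5′ to 3′. Capitals mark matches to the letters GCGCATGC (the core bound by NRF1, nuclear respiratory factor 1), CCGGAAG (an ETS site, the kind bound by GABP, also called NRF2 in this setting) or CAGCTG (an E-box, the kind bound by muscle bHLH factors), on either strand.
Cox8b: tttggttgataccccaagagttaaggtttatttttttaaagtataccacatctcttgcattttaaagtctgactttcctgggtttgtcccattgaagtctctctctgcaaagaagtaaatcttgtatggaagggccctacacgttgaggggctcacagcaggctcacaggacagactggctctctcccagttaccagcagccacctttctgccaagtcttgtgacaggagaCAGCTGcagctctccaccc
Cox8a: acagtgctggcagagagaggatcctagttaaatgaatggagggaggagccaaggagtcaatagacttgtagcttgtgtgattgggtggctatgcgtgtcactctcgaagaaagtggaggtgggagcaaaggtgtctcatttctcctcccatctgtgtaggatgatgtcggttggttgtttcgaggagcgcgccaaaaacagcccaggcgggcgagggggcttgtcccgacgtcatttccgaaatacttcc
Cox6a1: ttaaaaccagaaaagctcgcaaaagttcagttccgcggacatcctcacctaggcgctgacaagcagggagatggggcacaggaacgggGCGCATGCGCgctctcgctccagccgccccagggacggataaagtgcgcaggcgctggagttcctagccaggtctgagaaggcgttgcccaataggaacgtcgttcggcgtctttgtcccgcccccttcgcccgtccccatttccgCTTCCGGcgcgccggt

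The window of Cox8b held an E-box and neither of the other motifs, that of Cox6a1 held overlapping NRF1 cores on both strands and an ETS site, and that of Cox8a held none of the 3. Their GC content was 47.2%, 62.8% and 52.8% for Cox8b, Cox6a1 and Cox8a, beside a median of 56.4% over the members' windows and 52.4% over all. In windows of 300 bases (250 before and 50 after the start), 64 members matched with 69 windows. The NRF1 core was in 15.9% of them, beside 2.71% of all 32851 windows, and the ETS site in 24.6% beside 8.86%. The E-box was in 8.70% beside 16.3%, and a TATA box (TATAAA) in 13.0% beside 13.6%. A match is a description of these letters and does not show binding.

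Cox6a2, the heart and skeletal muscle form of subunit 6A, read 8.0, 8.99, 8.15 and 8.30 in the Atgl KO/cTg pools and 8.77, 9.24, 8.99 and 9.08 in the wt/cTg pools. Of the Atgl KO/cTg pools 3 lay well below every wt/cTg pool, and replicate 2 lay among them. The difference was -0.66 (SE 0.19), a ratio of 0.633, with the smallest limma adjusted p of all members, 0.399, and an exact permutation p of 0.0857. Without Atgl KO/cTg replicate 2 the difference was -0.87 and limma's adjusted p 0.0332, so in that fit Cox6a2 was called lower, and it was not called in the other 16 alternative settings. Leaving out single arrays gave differences from -0.87 to -0.54.

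Cox6a1, the form of subunit 6A that most tissues use, read 12.23, 12.48, 12.30 and 12.30 in Atgl KO/cTg, against 12.31, 12.34, 12.26 and 12.35 in wt/cTg. The wt/cTg pools lay inside the Atgl KO/cTg range. Its difference was 0.01 (95% limma interval -0.12 to 0.15), beside -0.66 (95% limma interval -1.07 to -0.25) for Cox6a2. Whether the 2 genes differed from each other in their change was not tested.

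Cox8b, the muscle and brown fat form of subunit 8, read 4.81, 5.80, 5.91 and 5.97 in Atgl KO/cTg, against 6.03, 6.27, 6.09 and 6.66 in wt/cTg. The groups did not overlap, and Atgl KO/cTg replicate 1 stood far below the other pools. Cox8b had a difference of -0.64 (SE 0.24), a ratio of 0.642, with a limma adjusted p of 0.531 and an exact permutation p of 0.0286, and a difference of -0.37 without that replicate. The level was low, and under the stricter level filter Cox8b was not tested. Cox8a, its counterpart in most tissues, read 11.23, 11.48, 11.21 and 11.27 in Atgl KO/cTg, against 11.32, 11.12, 11.18 and 11.15 in wt/cTg, with a difference of 0.10 (SE 0.07) and overlapping groups.

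The third muscle form gave a smaller difference. Cox7a1 read 6.84, 6.98, 6.32 and 7.13 in Atgl KO/cTg, against 6.85, 7.01, 7.12 and 6.84 in wt/cTg, a difference of -0.14 (SE 0.16), which was 0.03 without Atgl KO/cTg replicate 3. Its counterpart Cox7a2 was at 0.01 (SE 0.06). Among the genes of subunit 6B, Cox6b1, used in most tissues, was at -0.06 (SE 0.06) and the testis form Cox6b2 at -0.05 (SE 0.18). Cox7b2 and Cox8c, other testis forms, lay below the level filter.

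Of the 7 tissue forms listed (Cox6a2, Cox7a1, Cox8b, Cox6b2, Cox8c and, outside the symbol pattern, Cox4i2 and Ndufa4l2), 6 were tested. All 6 lay below 0 (52.2% of all tested genes did), with a median of -0.41 beside -0.0073 for all tested genes. The list was drawn up with earlier results known and holds Cox6a2 and Cox8b. It mixes forms of different tissues, so these counts describe the listed genes and add no support for a shared change. None was called, and 3 had an unadjusted p under 0.05, which 7.95% of all tested genes had. The testis form Cox7b2 was not on this list. Ndufa4l2, a relative of Ndufa4 known for its induction in hypoxia, averaged 6.47 ± 0.34 in Atgl KO/cTg, against 6.97 ± 0.19 in wt/cTg (SD, n = 4), a difference of -0.50 (SE 0.17, limma adjusted p = 0.485). Cox4i2, the lung form of subunit 4, averaged 7.18 ± 0.35 in Atgl KO/cTg, against 7.49 ± 0.23 in wt/cTg, a difference of -0.31 (SE 0.17, limma adjusted p = 0.70). Cox4i1, the form in most tissues, was at 0.10 (SE 0.06). Without Cox6a2, Cox7a1 and Cox8b the remaining 68 tested members had a median of -0.010.

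Transcripts of heart muscle also lay mostly below 0. Of 18 heart muscle markers 12 were tested and 6 lay below the level filter. Of the tested, 9 lay below 0 (52.2% of all tested genes did), with a median of -0.31, and 3 lay above 0, up to 0.11. Called lower were 2 of the 12, beside 0.0991% of all tested genes called in either direction. Low medians were not particular to heart muscle. Alveolar type 2 markers were at -0.45, fibroblast and smooth muscle at -0.36, alveolar type 1 at -0.35 and endothelial at -0.30. Ciliated, goblet and neutrophil markers were at 0.18, 0.64 and 0.56. Actc1, cardiac actin, read 6.74, 6.53, 7.05 and 7.03 in Atgl KO/cTg, against 7.75, 7.49, 7.97 and 7.87 in wt/cTg, and fell by 0.93 (SE 0.14, limma adjusted p = 0.0477). Tnnt2, cardiac troponin T, fell by 0.90 (SE 0.14, limma adjusted p = 0.0477), and Myl7, an atrial myosin light chain, was at -0.64 (SE 0.12, limma adjusted p = 0.132). None of the list was called in 11 of 17 alternatives, among them the mouse number block, quantile normalization and 7 of the 8 fits without 1 array, and 2 were called in 4. The linear signals of all 18 listed markers were also summed, including the 6 below the level filter. The sums lay between 1447 and 1679 in the Atgl KO/cTg pools and between 2100 and 2460 in the wt/cTg pools, without overlap. The lowest sum was that of Atgl KO/cTg replicate 2, the knockout pool in which Cox6a2 was highest. Of 6 adipocyte markers 2 were tested (Cidea at 0.27 and Plin1 at 0.14), and Ucp1, which defines brown fat, lay below the level filter at 4.25 ± 0.14 in Atgl KO/cTg, against 4.20 ± 0.17 in wt/cTg (SD, n = 4). The part of other cells in the values of Cox6a2 and Cox8b was not tested.

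**Figure D3:**
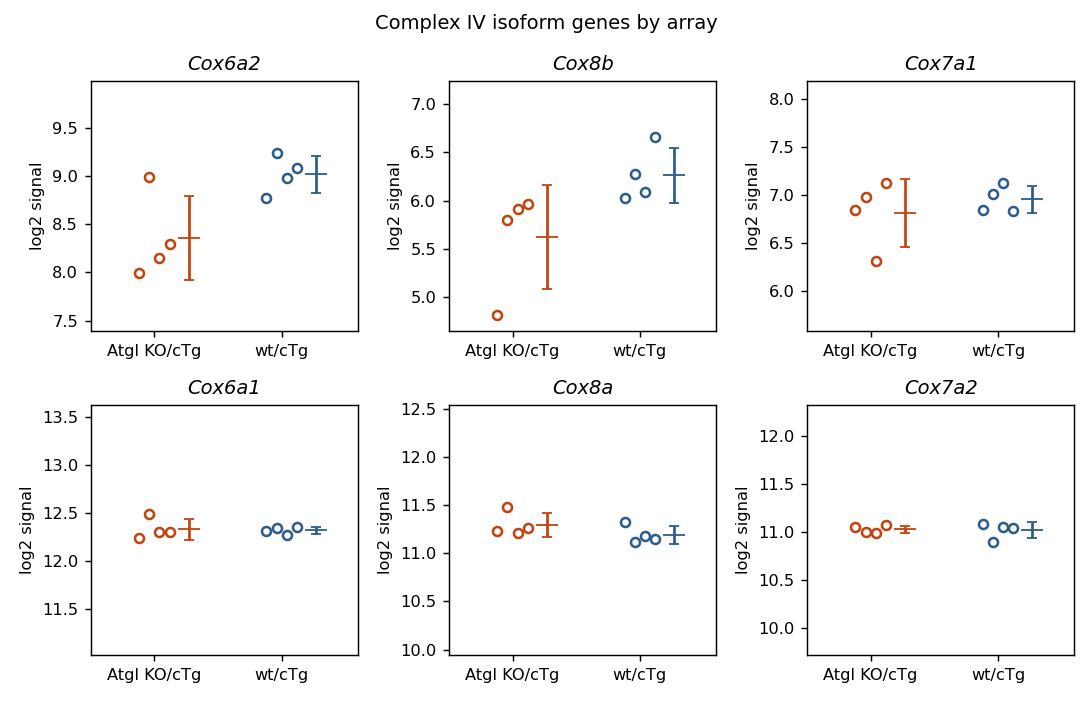
Log2 signal in each pool (open circles) with the group mean and SD (bars, n = 4) for the muscle forms Cox6a2, Cox8b and Cox7a1 (top) and their counterparts Cox6a1, Cox8a and Cox7a2 (bottom); every panel spans the same number of log2 units. Cox6a2 and Cox8b lie lower in most Atgl KO/cTg pools than in wt/cTg pools, and the 3 counterparts overlap between genotypes.

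Complex V, ATP synthase, was the most even of the larger complexes. Its 15 tested members lay between -0.10 and 0.04, with a median of -0.027, 5 above 0 and 10 below, and no limma adjusted p was under 0.797. For 12 of the 15 the 95% interval stayed within 0.25 of 0. The median was 0.0066 after quantile normalization and 0.00046 without Atgl KO/cTg replicate 3, so its sign is not settled. The 5 subunits of the catalytic F1 head had a median of -0.0093 and the 10 tested subunits outside it -0.04.

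Atp5a1, the alpha subunit, read 10.76, 10.71, 10.70 and 10.75 in Atgl KO/cTg, against 10.86, 10.65, 10.71 and 10.73 in wt/cTg, a difference of -0.0093 (SE 0.06). Atp5b, the beta subunit with the catalytic sites, averaged 10.8 ± 0.08 in Atgl KO/cTg, against 10.9 ± 0.09 in wt/cTg (SD, n = 4), a difference of -0.05 (SE 0.07). The groups of both genes overlapped. Among tested members of the complex, Atp5c1, the gamma subunit of the rotor, had the lowest difference, -0.10 (SE 0.11, limma adjusted p = 0.864), and Atp5j, coupling factor 6 of the outer stalk, the highest, 0.04 (SE 0.08, limma adjusted p = 0.947).

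Atp5pb, a subunit of the outer stalk, was at 9.19, 9.24, 9.16 and 9.24 in Atgl KO/cTg, against 9.30, 9.28, 9.28 and 9.25 in wt/cTg. The groups did not overlap, though their nearest pools were almost equal, and the difference was only -0.07 (SE 0.06, limma adjusted p = 0.837). The rotor ring is built from subunit c, which 3 genes encode with the same mature protein. Atp5g2 and Atp5g3 were at 0.03 (SE 0.07) and 0.02 (SE 0.06). Atp5g1 lay just below the level filter and was not tested, at 5.23 ± 0.15 in Atgl KO/cTg, against 5.12 ± 0.13 in wt/cTg (SD, n = 4). Atp5o, which joins the stalk to the head, also lay below the filter, at 4.74, 5.33, 4.48 and 4.71 in Atgl KO/cTg, against 4.59, 4.47, 4.62 and 4.50 in wt/cTg.

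Pools of one genotype spread more widely over the chain than the genotype means lay apart. Members above their own mean over the 8 arrays numbered 30, 40, 9 and 48 of 71 in Atgl KO/cTg replicates 1 to 4, and 39, 23, 52 and 35 in wt/cTg replicates 1 to 4. The lowest and the second highest of these counts were both Atgl KO/cTg pools. As shares they were 42.3%, 56.3%, 12.7% and 67.6% in Atgl KO/cTg, and 54.9%, 32.4%, 73.2% and 49.3% in wt/cTg. Over all tested genes the shares were 31.3%, 56.3%, 45.8% and 63.3% in Atgl KO/cTg, and 67.0%, 49.6%, 43.8% and 45.6% in wt/cTg. The mean deviation of all members from their own means was -0.04, 0.03, -0.07 and 0.03 in the Atgl KO/cTg pools and 0.02, -0.03, 0.06 and 0.01 in the wt/cTg pools, overlapping ranges. Complex IV gave -0.15, 0.01, -0.15 and 0.01 in Atgl KO/cTg, against 0.02, 0.08, 0.07 and 0.10 in wt/cTg, so that each Atgl KO/cTg pool was below each wt/cTg pool, the nearest by less than 0.01. That mean includes Cox6a2 and Cox8b, and the median deviation of the complex overlapped, at -0.01, -0.03, -0.04 and 0.03 in Atgl KO/cTg, against 0.02, 0.02, 0.09 and 0.02 in wt/cTg.

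**Figure D4:**
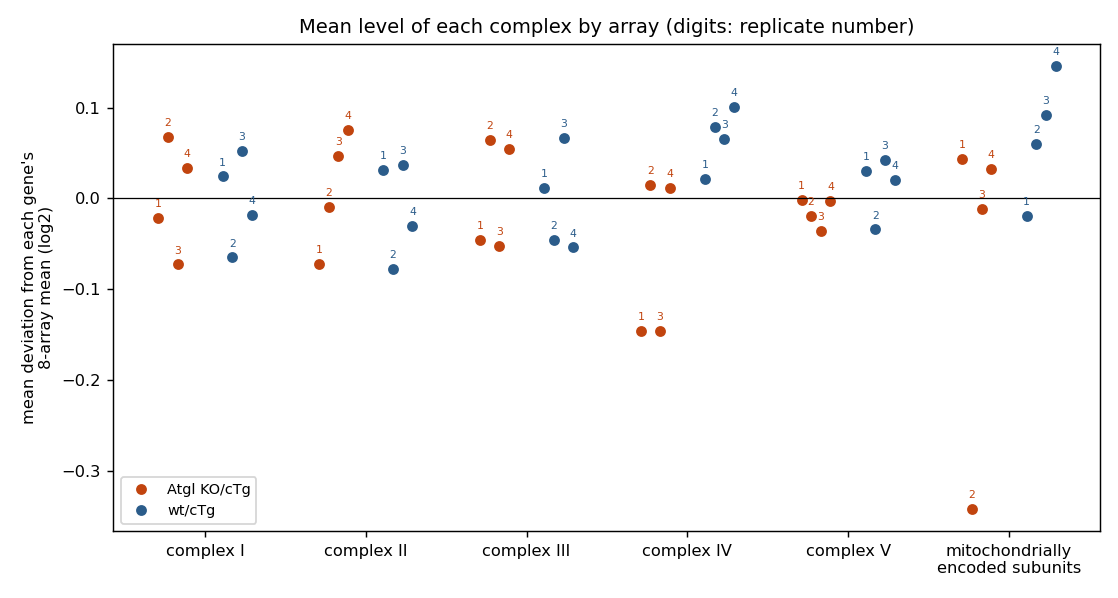
Mean log2 deviation of each complex's tested members from their own 8-array means, by array, with Atgl KO/cTg pools left of wt/cTg pools and digits giving the replicate. Complexes I, II, III and V overlap between genotypes, complex IV does not by its mean (it does by its median), and the mitochondrially encoded subunits of Atgl KO/cTg replicate 2 lie at -0.34.

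The subunits encoded by mitochondrial DNA, which form the proton-pumping heart of complexes I, III and IV, were read from separate probe sets and are not members. All 10 tested lay below 0, from -0.17 (ND2) to -0.08 (ND4), with a median of -0.15, and none was called (smallest limma adjusted p 0.673). The size of the difference rested largely on 1 pool: the mean deviation was 0.04, -0.34, -0.01 and 0.03 in Atgl KO/cTg, against -0.02, 0.06, 0.09 and 0.15 in wt/cTg. Without Atgl KO/cTg replicate 2 the median was -0.05, with all 10 still below 0. In Atgl KO/cTg replicate 2 all 10 mitochondrially encoded subunits had their lowest value of the 8 arrays, where 16.3% of all tested genes had theirs. All 10 also had their highest value in 1 array, wt/cTg replicate 4, where 11.5% of all tested genes had theirs. They moved together, so they are not 10 separate observations. Of the 71 nuclear members 21 (29.6%) had their highest value in Atgl KO/cTg replicate 2 and 10 (14.1%) their lowest, beside 22.9% and 16.3% of all tested genes. COX1, the catalytic subunit of complex IV, read 12.46, 11.95, 12.40 and 12.43 in Atgl KO/cTg, against 12.39, 12.44, 12.48 and 12.58 in wt/cTg.

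Of the chain subunits outside the symbol pattern 6 were tested, with a median of -0.05, 3 on each side of 0 and none called. Ndufab1, the acyl carrier protein that is also a subunit of complex I, averaged 5.80 ± 0.14 in Atgl KO/cTg, against 5.93 ± 0.18 in wt/cTg (SD, n = 4), with overlapping groups and a difference of -0.12 (SE 0.12, limma adjusted p = 0.85).

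The other genes that build, regulate or feed the chain gave medians near 0 as well, apart from the mitochondrially encoded list. Over 6 lists 122 of 129 genes were tested, none was called in any of the 18 fits, and 5 had an unadjusted p under 0.05, a smaller share than the 7.95% of all tested genes. The 40 tested assembly factors, which put the complexes together, had a median of 0.016, with Ndufaf4, a factor of complex I, at -0.24 (SE 0.12, limma adjusted p = 0.651). The 24 regulators of mitochondrial biogenesis had a median of 0.017. The coactivators Ppargc1a and Ppargc1b were at 0.12 (SE 0.14) and 0.13 (SE 0.12), the transcription factors Nrf1, Gabpa and Esrra at 0.10 (SE 0.12), -0.08 (SE 0.08) and 0.08 (SE 0.12), and Tfam, which packages and helps transcribe mitochondrial DNA, at -0.02 (SE 0.15). Prkaa2, a catalytic subunit of AMP-activated kinase, read 6.87, 7.05, 6.83 and 7.16 in Atgl KO/cTg, against 6.78, 6.78, 6.54 and 6.81 in wt/cTg, without overlap, at 0.25 (SE 0.11, limma adjusted p = 0.615).

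Of the 21 genes of the tricarboxylic acid cycle and its entry points, 14 lay below 0, with a median of -0.05. The largest differences were at the entry of pyruvate and ran in opposite directions. Pcx, pyruvate carboxylase, which makes oxaloacetate, read 6.89, 6.88, 6.79 and 7.25 in Atgl KO/cTg, against 6.74, 6.40, 6.25 and 6.43 in wt/cTg. Pdk4, a kinase that switches off pyruvate dehydrogenase, read 6.59, 6.51, 6.49 and 6.78 in Atgl KO/cTg, against 7.07, 6.57, 7.43 and 7.46 in wt/cTg. Each Atgl KO/cTg pool of Pcx was above each wt/cTg pool, and Pdk4 overlapped through wt/cTg replicate 2. Pcx was at 0.50 (SE 0.14, limma adjusted p = 0.398) and Pdk4 at -0.54 (SE 0.18, limma adjusted p = 0.492). The 21 tested carriers of electrons and ATP had a median of -0.0038, with Coq9, which serves ubiquinone synthesis, at 0.19 (SE 0.10, limma adjusted p = 0.665) and Slc25a4, a carrier that exchanges ADP and ATP, at -0.12 (SE 0.08, limma adjusted p = 0.766).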

How the data were processed

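The authors deposited 1 table of log2 signals per probe set and array, the unit being read from the values (1.85 to 13.5, array medians 5.12 to 5.24). Per the labels' protocols, 50 ng of RNA went into a NuGEN Ovation Pico WTA amplification with biotin label. No software or normalization is named in the labels read here. Signal above background and batches could not be tested, since neither scanner output nor scan dates were used, and the number of arrays limits the precision. Array pairs correlated at 0.965 to 0.985.

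Of 41345 probe sets, 23521 had 1 symbol, 1814 several and 16010 none in the platform annotation. For each of 22180 genes the probe set with the highest mean was kept, and 13112 with a mean above 5.18 were tested. The genotype difference was fitted in R 4.3.3 by limma 3.58.1 (lmFit, eBayes with a variance trend, two-sided), with Benjamini-Hochberg adjustment over those genes and a threshold of 0.05. Exact two-sided permutation over 70 arrangements was added for single genes. The fit was tested on simulated data. Figures were drawn with matplotlib 3.10.9.

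Members and gene lists were chosen with earlier results of these data known. Named were Pnpla2, the lowest and highest tested member of each complex, members with an unadjusted p under 0.05, central subunits, isoform genes, up to 2 genes of each other list by p with 6 biogenesis regulators, and up to 4 heart muscle genes. Other genes (Ndufs5, Uqcrc1, Uqcrc2, Cox7b, Cox7b2, Cox8c, Atp5pb, Atp5o, Cox4i1, Cox4i2, Ndufab1, COX1 and cell type markers) were named after their values were seen. Alternatives covered the level filter, quantile normalization, array weights, median centring, the variance prior, probe set rule, age, runs of mouse numbers and each array left out.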

Additional observations from a re-analysis of the deposited data

Results flagged for a closer look

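Within the 4 pools of a genotype, the gap of an end pool to its nearest neighbour was set against the whole range and compared with Dixon's 95% critical value. Of 74 sets of 4 pools tested, 3 exceeded it, and chance gives about 1 in 20. Cox8b in Atgl KO/cTg replicate 1 was at 4.81, with the other Atgl KO/cTg pools at 5.80 to 5.97. Cox6b1 in Atgl KO/cTg replicate 4 was at 10.66, with the others at 10.57 to 10.58. The mean deviation of the mitochondrially encoded subunits in Atgl KO/cTg replicate 2 was -0.343, with the others at -0.012 to 0.043. The causes were not tested.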

How the results depend on the processing

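Under 17 alternatives Pnpla2 was called in every fit, at -1.78 to -1.62 with single arrays left out. The count of chain members past the threshold was 0 in all except the fit without Atgl KO/cTg replicate 2, where it was 1 (Cox6a2), a range of 0 to 1 over arrays left out. The members' median ran from -0.026 to 0.013 over arrays left out and from -0.043 to 0.0086 otherwise, and median centring moved the median of all genes to -0.04. Members with an unadjusted p under 0.05 numbered 1 to 5. The call count over all genes ran from 1 to 25. The median of complex I took the other sign in 5 settings and that of complex III in 5. The study's own description mentions sets in which knockout and control pools were compared. No paired analysis was possible because no label assigns a pool to a set and the replicate numbers follow accession order. The main fit was therefore unpaired, and whether pairing within those sets would change the results was not tested. As a substitute, runs of neighbouring mouse numbers in the titles were fitted as a block over 7 arrays, which called 0 members. Detection could not be tested, so low signals such as that of Cox8b are the least certain.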
